A study of Homo sapiens with 3 samples.

Results

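Interferon-stimulated genes are the transcripts that cells switch on after interferon binds its receptors. Type I interferon acts through the receptor chains IFNAR1 and IFNAR2, whose kinases JAK1 and TYK2 lead to a complex holding STAT2 and IRF9 that binds interferon-stimulated response elements, while interferon gamma, through its own receptor, induces the factor IRF1. The products sense viral nucleic acid, degrade or block viral RNA, attach or remove the ubiquitin-like protein ISG15, or attack the vacuoles of intracellular microbes. Some tumour cell lines keep a low level of them without added interferon.

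Here a list of 42 such genes, matched to the table by their symbols, was examined in AB12, a mouse malignant mesothelioma cell line; all 42 had a row among the 13936 genes of the deposited table. The control was 1 library labelled shSC, and 2 libraries labelled shNF2 carry the numbers 20 and 21. All were AB12 cells grown in RPMI with 10% serum, and the labels name no interferon or other agent. The labels do not say whether 20 and 21 are different hairpins or separate cultures, so a p-value reflects no more than how far these libraries scatter, which may be technical, and shSC had no replicate. The gene NF2 codes for merlin, a tumour suppressor at the cell membrane, and the question posed by the design is how its loss changes the transcriptome.

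Values are scaled counts, that is, reads per gene divided by 1 factor per library. Reads in genes ranged from 25837151 to 29532600 per library. Nf2 itself had 1539 scaled counts in shSC against 486 (library 20) and 458 (library 21) (limma adjusted p = 0.00555). Of 11 mesothelial markers 5 had rows, among them Msln, which encodes mesothelin, at 7397, 9722 and 8977 and Krt18 at 23657, 20443 and 16561; Krt7 rose from 49.7 to 290 and 183 (limma adjusted p = 0.0119), Krt19 had 5113, 3016 and 2618, and Krt8 had 7683, 6476 and 5420. Markers without a row, Wt1 included, were not analysed here. Of 27 leukocyte markers 5 had rows, and their summed level was 3673 in shSC, 3495 in library 20 and 2189 in library 21. Most of it came from Cd14 (3222, 2576 and 1659), while Lyz2 had 56.5, 260 and 108. Bst1 had 297, 542 and 315, and S100a8 had 8.76, 11.5 and 19.4. Cd14 was the 1 marker below shSC in both libraries, and 3 lay above in both, beside 35.8% and 36.1% of all tested genes. Of the 5, 0 passed with limma, edgeR or DESeq2. An unadjusted p under 0.05 was seen in 2, against 9.27% of all tested genes. Ptprc, the pan-leukocyte marker, was not analysed here. Of 13 fibroblast and endothelial markers 3 had rows, with a sum of 14.6, 22.0 and 90.4, the last mostly from Acta2. The part of these markers in the results below was not tested, and in bulk RNA fewer expressing cells and less RNA per cell cannot be told apart.

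The interferon-stimulated genes did not move as a block. With limma, Oas2, Irf7 and Ifi27l2a were called lower in shNF2 and no member was called higher. The test took in 41 members with a mean of at least 10 scaled counts, and Mx1 was below that mean. The background over all 12813 genes tested was 0.429% called lower and 0.414% called higher. At an unadjusted p under 0.05 there were 15 members lower and 2 higher, beside 4.91% and 4.36% of all tested genes (9.27% in either direction). All 6 listed OAS genes lay below shSC in both libraries, as did 35.8% of all tested genes. Of the 4 listed GBP genes 3 lay above shSC in both, as did 36.1% of all tested genes, and none passed with limma. The IFIT genes and the nucleic acid sensors went both ways, and the receptors and STAT factors upstream did not pass the test.

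**Figure D1:**
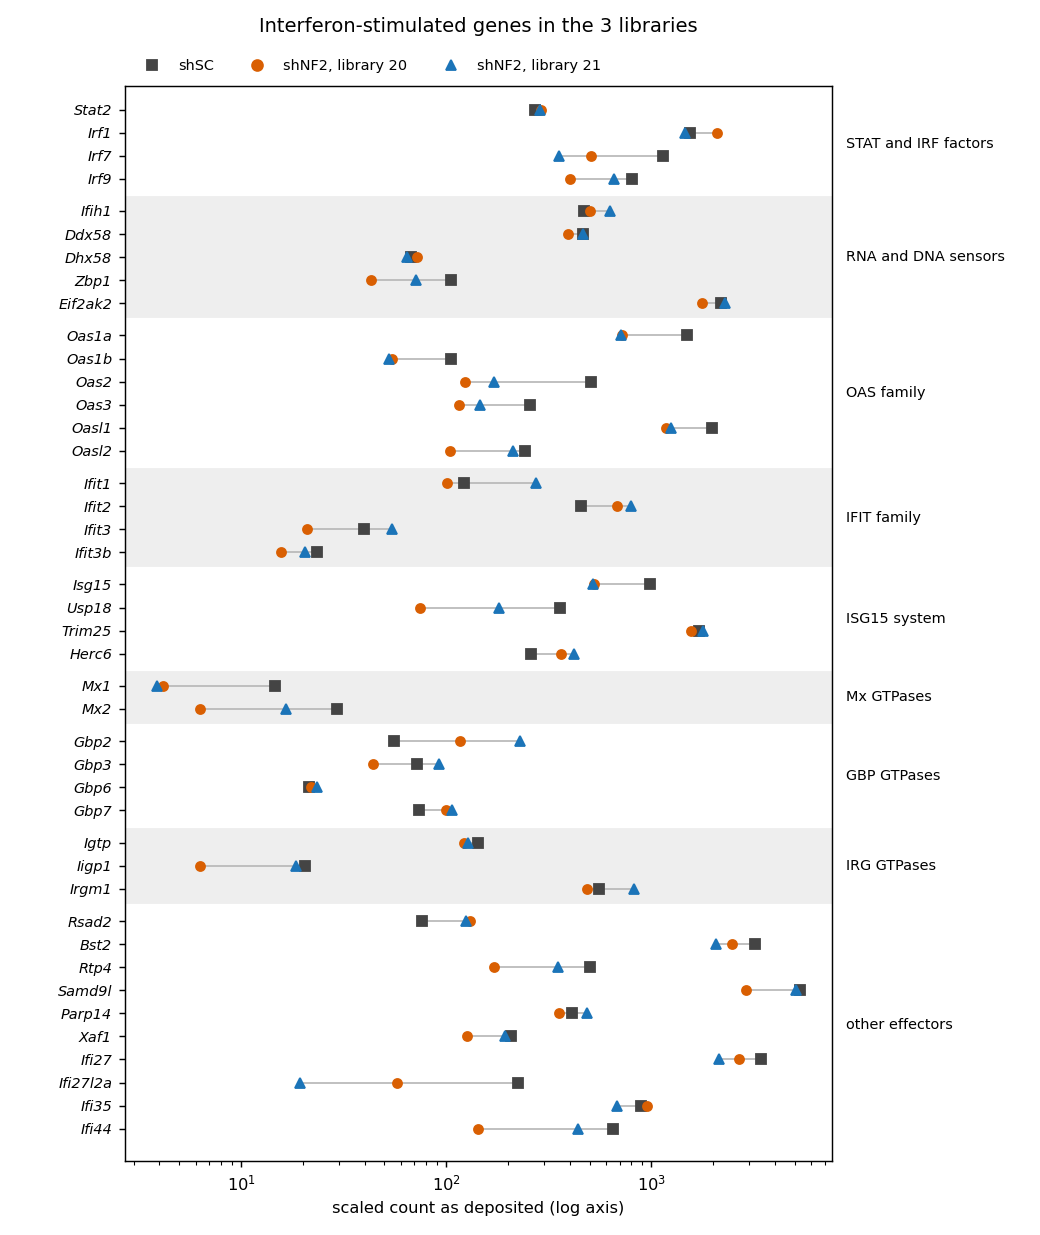
Scaled counts (log axis) of the 42 genes in shSC (square), library 20 (circle) and library 21 (triangle), grouped by role; each point is 1 library. Oas2 sits at 507 in shSC and at 123 and 170 in the shNF2 libraries, whereas Gbp2 sits at 55.5 in shSC and at 117 and 228.

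The STAT and IRF factors, which turn on the rest, differed from each other. Irf7, the factor that amplifies interferon alpha production and is itself interferon-induced, had 1146 scaled counts in shSC against 506 (library 20) and 355 (library 21). Both shNF2 libraries were thus 2.26-fold and 3.23-fold below shSC. The log2 fold change was -1.43 ± 0.27 (SE) with a limma adjusted p of 0.0273, on the log2(scaled count + 1) scale, where changes of low genes come out too small. Irf9, the DNA-binding part of the type I complex, had 809, 403 and 660, a log2 fold change of -0.65 that did not pass (limma adjusted p = 0.528). Its value in library 20 was 2.01-fold below shSC, and that in library 21 only 1.23-fold. Stat2, the partner of IRF9, had 270, 291 and 286, and the largest gap between any 2 of these libraries is smaller than the median standard error of the fit (0.26 on the log2 scale). Irf1, which acts downstream of interferon gamma, had 1538, 2082 and 1464, so shSC lay between the shNF2 libraries.

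The OAS family makes or mimics enzymes that sense double-stranded RNA; OAS1, OAS2 and OAS3 proteins synthesise the oligoadenylates that activate RNase L. Oas2 fell from 507 scaled counts in shSC to 123 (library 20) and 170 (library 21), that is, 4.11-fold and 2.98-fold. The log2 fold change of -1.80 ± 0.31 (SE) had a limma adjusted p of 0.016, rank 56 of all tested genes by p. Oas1a had 1488 in shSC and almost equal values of 718 and 713 in libraries 20 and 21. Its log2 fold change of -1.06 ± 0.23 (SE) missed the threshold with limma (adjusted p = 0.0534) and with edgeR's quasi-likelihood test (adjusted p = 0.0503) and passed with DESeq2 (adjusted p = 0.0317). Oas1b, a family member linked to flavivirus resistance in mice, had 105, 54.4 and 52.5. Oas3 had 256, 115 and 147. None of the values of these genes in shNF2 overlapped that of shSC, although Oas1b and Oas3 did not pass (limma adjusted p = 0.442 and 0.293). With 1 control library such a separation is the usual case: 71.9% of all tested genes had both shNF2 values on 1 side of shSC. The OAS-like gene Oasl1, whose product restrains Irf7 translation, had 1975, 1174 and 1242, a log2 fold change of -0.71. Oasl2 had 241, 105 and 212, so it lay near shSC in library 21. All 6 genes were below shSC in both libraries, as were 35.8% of all tested genes. Of the 6, 5 had an unadjusted p under 0.05 (4.91% of all tested genes were lower at that p). The median log2 fold change of the 6 was -0.97. Oas1a shares much of its sequence with its neighbours in the Oas1 cluster, so the split of reads among them is uncertain.

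Some products of the IFIT family bind the ends of foreign RNA. Ifit2 had 457 scaled counts in shSC against 678 (library 20) and 796 (library 21), above shSC in both but not passing (log2 fold change 0.68, limma adjusted p = 0.356). Ifit1 had 122, 101 and 275, so library 20 lay near shSC and library 21 was 2.26-fold above it. Ifit3 had 39.9, 20.9 and 54.4 and its near-copy Ifit3b 23.4, 15.7 and 20.4. The shNF2 libraries lay on either side of shSC for Ifit1 and Ifit3, and for these 4 genes the median was -0.40 in library 20 and 0.62 in library 21. Reads of Ifit3 and Ifit3b may have been split between them.

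In the ISG15 system the modifier and its protease were low. Isg15, the ubiquitin-like modifier, had 983 scaled counts in shSC and 527 and 519 in libraries 20 and 21. These 2 values nearly coincide, 1.87-fold and 1.89-fold below shSC, and the log2 fold change of -0.91 ± 0.24 (SE) did not pass (limma adjusted p = 0.138). Usp18, which removes ISG15 and dampens signalling at the type I receptor, had 360, 74.3 and 181. It lay 4.85-fold below shSC in library 20 and 1.99-fold in library 21, a spread that left it short of the threshold (-1.63 ± 0.44, SE, limma adjusted p = 0.145). Herc6, the main mouse ligase for ISG15, had 260, 361 and 418, above shSC in both (0.58, limma adjusted p = 0.552). Trim25, a ligase that acts on RIG-I, had 1718, 1560 and 1785.

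The nucleic acid sensors were mostly near shSC. Ifih1, which encodes the long double-stranded RNA sensor MDA5, had 472, 504 and 632 scaled counts in shSC, library 20 and library 21. Ddx58, which encodes RIG-I, had 462, 392 and 463, and Dhx58, which encodes their regulator LGP2, had 67.2, 72.2 and 64.2. For both Ddx58 and Dhx58 shSC lay within the range of the shNF2 libraries. Eif2ak2, the kinase PKR that stops translation on double-stranded RNA, had 2178, 1771 and 2285. Zbp1, a sensor of Z-form nucleic acid that can trigger necroptosis, was the exception, with 106, 42.9 and 71.0, below shSC in both (-0.93 ± 0.43, SE, limma adjusted p = 0.528). Of these 5 genes 0 passed with limma, edgeR or DESeq2, and 1 had an unadjusted p under 0.05, against 9.27% of all tested genes.

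None of the 8 large GTPase genes tested passed with limma, edgeR or DESeq2. At an unadjusted p under 0.05 there was 1 of them, against 9.27% of all tested genes. Mx2, an Mx GTPase that blocks viral nucleocapsids, had 29.2 scaled counts in shSC against 6.28 (library 20) and 16.5 (library 21), a log2 fold change of -1.42 that did not pass (limma adjusted p = 0.548). Mx1 had 15 reads in shSC and 4 in each shNF2 library, ratios of 0.286 and 0.266 with exact 95% counting intervals of 0.0692 to 0.899 and 0.0643 to 0.836. Those intervals cover counting error only.

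Among the guanylate-binding proteins, which coat the vacuoles of intracellular microbes, Gbp2 had 55.5 scaled counts in shSC against 117 (library 20) and 228 (library 21). It was the member farthest above shSC, 2.11-fold and 4.12-fold, or 1.54 ± 0.41 (SE) on the log2 scale (limma adjusted p = 0.144). Gbp7 had 74, 99.4 and 107, Gbp6 21.4, 22.0 and 23.3, and Gbp3 72.1, 43.9 and 92.3. Gbp2, Gbp6 and Gbp7 thus lay above shSC in both libraries, as did 36.1% of all tested genes. Gbp6 did so by less than its standard error of 0.53. The IRG GTPases, which act on the same vacuoles, were below shSC in both libraries in 2 of 3 genes, against 35.8% of all tested genes. Igtp had 142, 122 and 127, Irgm1 554, 489 and 821, and Iigp1 20.4, 6.28 and 18.5. The fall of Igtp, -0.19 on the log2 scale, was smaller than its standard error of 0.33. Of these 7 GBP and IRG genes 0 passed with limma, edgeR or DESeq2. An unadjusted p under 0.05 was seen in 1, against 9.27% of all tested genes.

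The remaining effectors held the largest fall. Ifi27l2a, an interferon-induced gene of the ISG12 family, fell from 224 scaled counts in shSC to 57.5 in library 20 and 19.4 in library 21, or 3.89-fold and 11.5-fold. On the log2 scale this was -2.70 ± 0.54 (SE) with a limma adjusted p of 0.0362, rank 20 from the lowest among all tested genes, although the libraries differed from each other, by -1.52 on the log2 scale for library 21 against library 20. The call was lost with TMM scaling of the recovered reads in place of the deposited scaling (limma adjusted p = 0.0631). It was also lost with robust moderation (limma adjusted p = 0.131). Its relative Ifi27 had 3443, 2682 and 2133, below shSC in both (-0.53, limma adjusted p = 0.475).

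Ifi44 had 654 scaled counts in shSC against 142 (library 20) and 440 (library 21). It was 4.60-fold below shSC in library 20 and 1.49-fold in library 21, and did not pass (-1.38 ± 0.47, SE, limma adjusted p = 0.309). Rtp4, a receptor transporter that inhibits flavivirus replication, had 501, 171 and 353 (-1.03, limma adjusted p = 0.356), with the same order of libraries. Samd9l, an inhibitor of translation in infected cells, had 5302, 2891 and 5072, and Xaf1, which antagonises the apoptosis inhibitor XIAP, had 206, 127 and 193. In both genes library 20 was low and library 21 lay next to shSC.

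Bst2, which encodes tetherin, the protein that holds budding virions at the cell surface, had 3207, 2488 and 2058 scaled counts in shSC, library 20 and library 21 (-0.50, limma adjusted p = 0.492). Rsad2, which encodes the antiviral radical enzyme viperin, went the other way with 75.9, 131 and 124 (0.74, limma adjusted p = 0.547). Both shNF2 libraries lay on 1 side of shSC in each of these genes, as in 71.9% of all tested genes. Parp14, an ADP-ribosyltransferase, had 412, 357 and 488, and Ifi35 had 892, 957 and 681, so shSC lay between the shNF2 libraries for both.

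**Figure D2:**
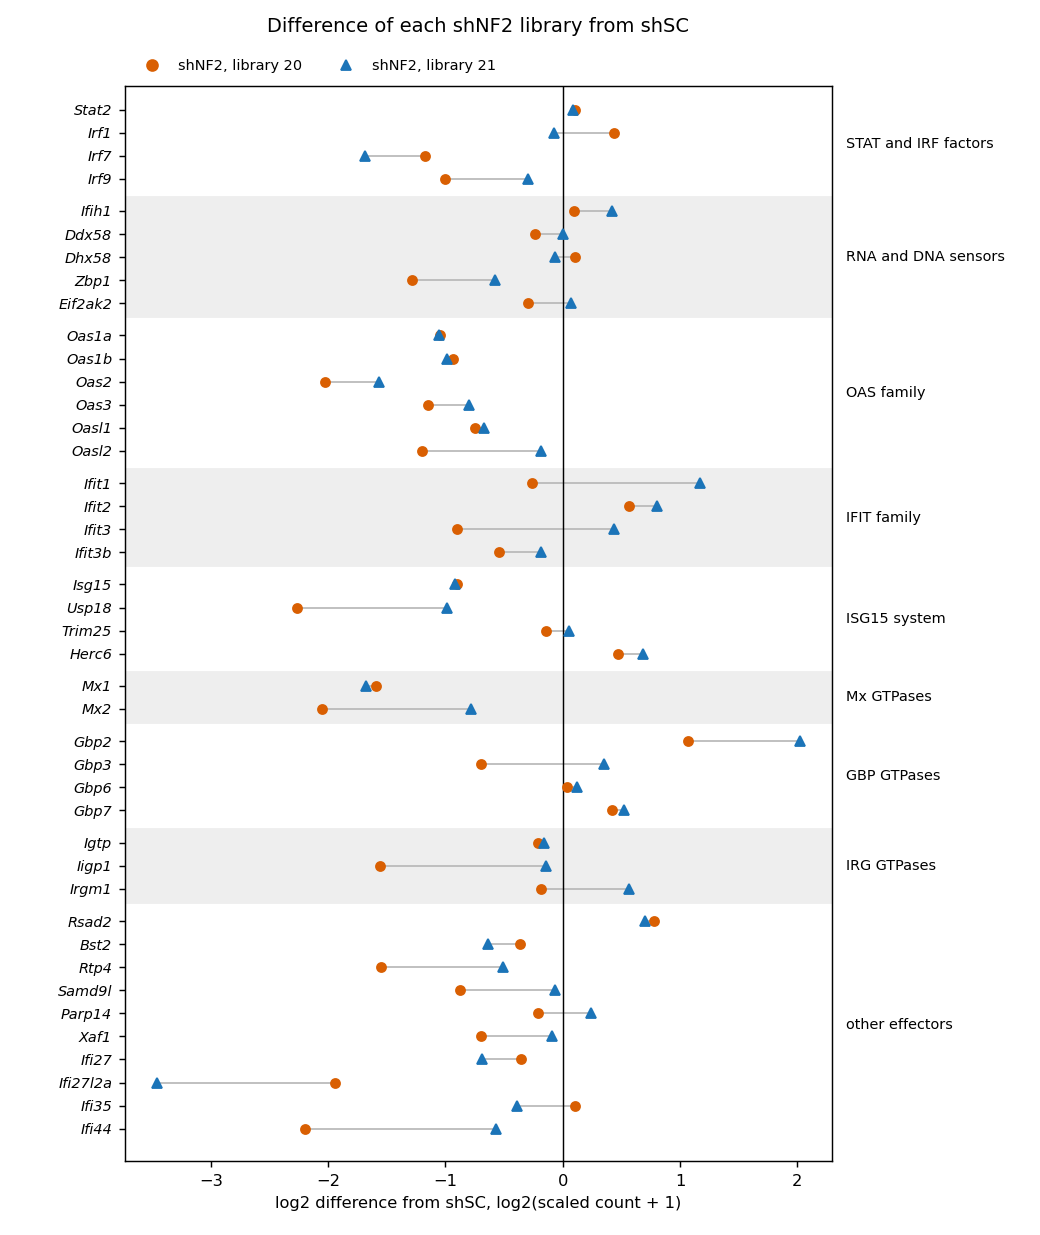
Log2 difference of library 20 (circle) and library 21 (triangle) from shSC, on log2(scaled count + 1), for the 42 genes grouped by role; the vertical line marks shSC. All 6 OAS genes lie left of the line in both libraries, while the circles of Ifi44, Usp18 and Mx2 lie near -2 and their triangles nearer to the line.

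Counted over the 41 tested members, 22 were below shSC in both shNF2 libraries and 8 above in both, where the shares over all tested genes were 35.8% and 36.1%. A difference of at least 1.5-fold in both libraries was seen downward in 10 members, against 3.98% of all genes, and upward in 2, against 3.82%. The 10 were Irf7, Oas1a, Oas1b, Oas2, Oas3, Oasl1, Isg15, Usp18, Mx2 and Ifi27l2a, and the 2 were Gbp2 and Rsad2. Both libraries are set against the same shSC library, so a chance value of shSC moves both alike. The members were also chosen with earlier results of these data known, so these counts are a description without a test. The median log2 fold change of the members was -0.37, beside -0.004 over all tested genes. edgeR called 3 members lower and 0 higher (0.406% and 0.226% of all genes), and DESeq2 called 4 lower and 0 higher (0.445% and 0.32% of all genes), the fourth being Oas1a.

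The libraries differed in how far the members lay from shSC. The median over members was -0.55 in library 20 and -0.14 in library 21, beside 0.01 and -0.002 over all tested genes. Between the shNF2 libraries themselves, without reference to shSC, 15 of the 41 members were at least 1.5-fold higher in library 21 than in library 20, against 5.74% of all genes. Only Ifi27l2a was at least 1.5-fold lower, against 7.44% of all genes. The 15 included Ifi44, Ifit1, Iigp1, Ifit3, Usp18, Mx2, Gbp3, Rtp4 and Oasl2, with log2 differences from 1.62 for Ifi44 to 1.01 for Oasl2. Among the members Oas1a, Isg15, Stat2 and Oas1b differed least between them, with log2 differences from -0.01 for Oas1a to -0.05 for Oas1b. Nf2 was nearly equal in both, at 486 and 458 scaled counts. With 1 library each, this difference has no test.

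**Figure D3:**
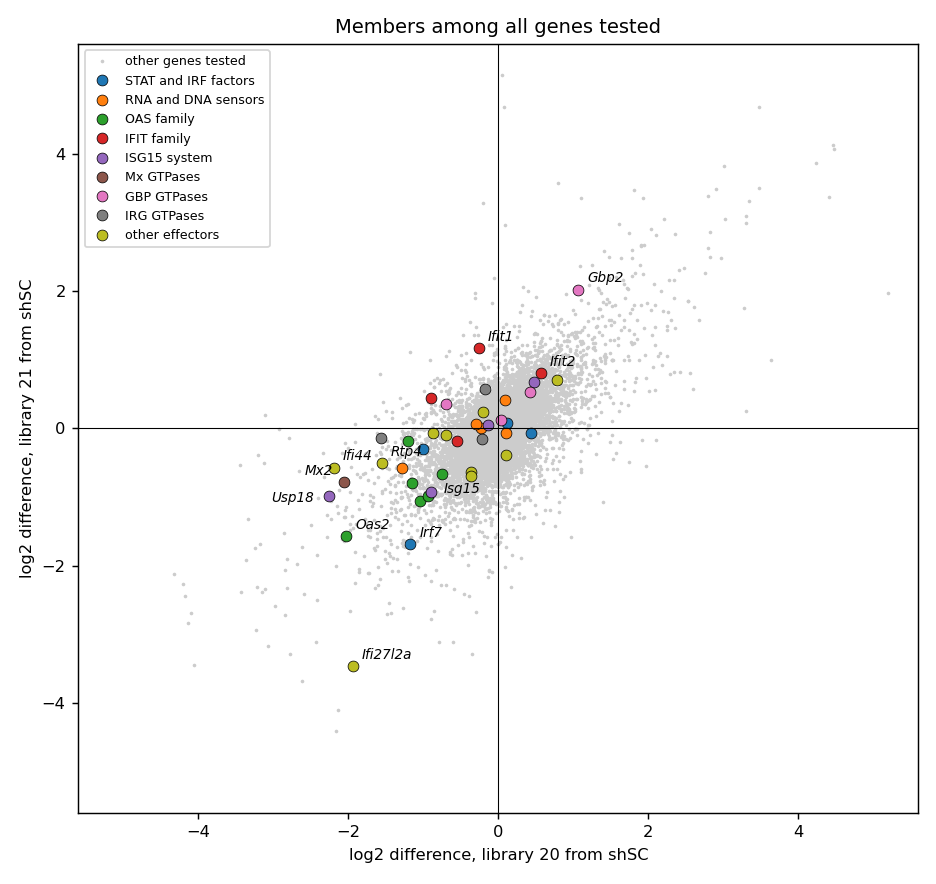
Log2 difference from shSC in library 20 (x axis) and library 21 (y axis) for the 12813 genes tested (grey) and the 41 tested members (coloured by role); both axes share the shSC library. Oas2, Irf7 and Ifi27l2a lie far down and left, Gbp2 up and right, and Ifi44, Usp18 and Mx2 are farther from 0 on the x axis than on the y axis.

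The machinery upstream of these genes was measured as well. Of 21 interferon ligand genes none had a row, and they were not analysed here. Of 10 tested receptor and JAK-STAT genes 0 passed with limma, edgeR or DESeq2. An unadjusted p under 0.05 was seen in 0, against 9.27% of all tested genes. The type I receptor genes Ifnar1 (1325, 1241 and 1274) and Ifnar2 (888, 968 and 872) varied little. Of the interferon gamma receptor genes, Ifngr1 had 1954, 2095 and 2317 and Ifngr2 952, 779 and 608. The kinase genes Jak1 and Jak2 had log2 fold changes of 0.45 and 0.46 (limma adjusted p = 0.573 and 0.672).

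The nucleic acid sensing list and the negative regulators gave no calls either. Of 16 tested genes on the sensing list and of 10 negative regulators, 0 passed with limma, edgeR or DESeq2. The sensing list held adaptors, receptors and kinases, and also the factors Irf2, Irf3, Irf5 and Irf8. In both lists 0 genes had an unadjusted p under 0.05, against 9.27% of all tested genes. The median log2 fold changes of the sensing list and the regulators were 0.13 and 0.02. Within the sensing list the smallest p-values belonged to Tlr4, the lipopolysaccharide receptor (-0.27), the kinase gene Ikbke (0.30) and the adaptor gene Tank (-0.23). Among the negative regulators they belonged to Socs1, Ptpn11 and Pias3. Socs1, the main feedback inhibitor of JAK kinases, had 143, 140 and 66.1 scaled counts, so only library 21 was low. Ptpn11 and Pias3 had log2 fold changes of 0.25 and -0.32.

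Another 77 interferon-stimulated genes outside the 42 were listed, of which 66 were tested. With limma 0 passed, and 10 were lower and 2 higher at an unadjusted p under 0.05 (4.91% and 4.36% of all tested genes). edgeR called 0, and DESeq2 called 1 lower and 1 higher (0.445% and 0.32% of all genes). Gbp4, a guanylate-binding protein gene like Gbp2, had 394 scaled counts in shSC and 1138 and 786 in libraries 20 and 21 (1.26 ± 0.27, SE, limma adjusted p = 0.0502, DESeq2 adjusted p = 0.0221). Ifitm3, which blocks viral fusion in endosomes, had 8281, 4661 and 4165 (-0.91 ± 0.21, SE, limma adjusted p = 0.0753, DESeq2 adjusted p = 0.0348). Phf11d had 2394, 1218 and 1306 (-0.92, limma adjusted p = 0.0805). These 3 genes were named for the smallest p-values of the list. In each the shNF2 libraries lay on 1 side of shSC, as in 71.9% of all tested genes, up for Gbp4 and down for the others. Of the 66 tested genes of the list, 35 lay below shSC in both libraries and 18 above in both. The shares over all tested genes were 35.8% and 36.1%. The median log2 fold change of the list was -0.16, beside -0.004 over all tested genes.

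**Figure D4:**
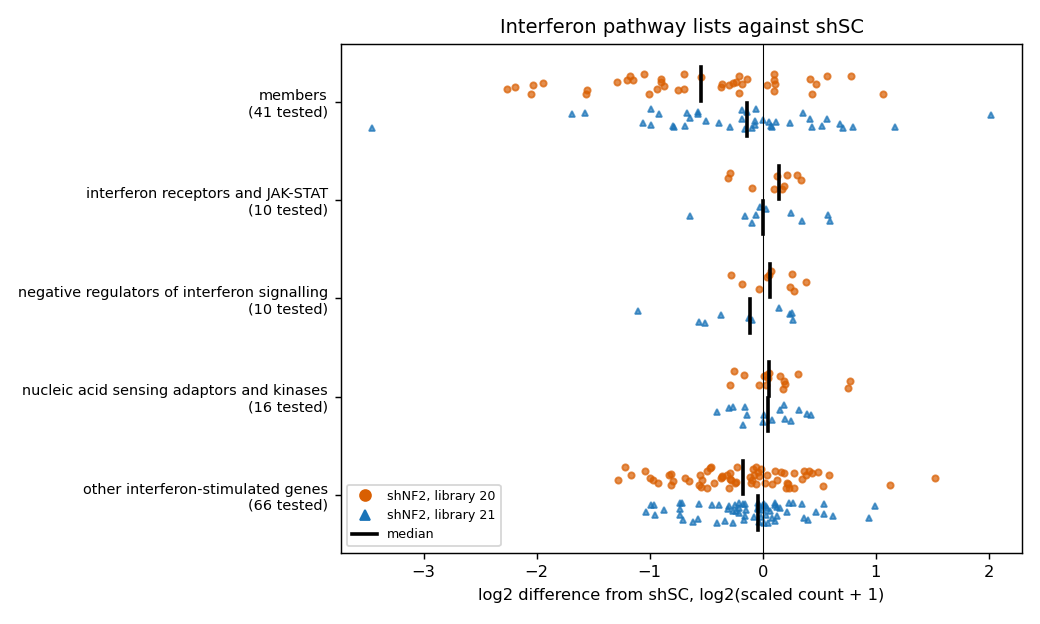
Log2 difference from shSC of each tested gene in 5 interferon pathway lists, for library 20 (circles) and library 21 (triangles); points are shifted vertically at random for clarity and black bars are medians. The members' median is -0.55 in library 20 and -0.14 in library 21, while those of receptors, regulators and sensing genes lie within 0.15 of 0.

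Only the 2 shNF2 libraries informed the spread (1 residual degree of freedom, moderated across genes) and shSC was taken to vary like them; enumerating all assignments of 2 against 1 gives no exact p under 0.333. No call on a member remained under quantile normalization (12 members at an unadjusted p under 0.05) or without a variance trend (14 members), where limma called 0 genes in all.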

How the data were processed

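RNA libraries of AB12 cells (1 shSC, 2 shNF2) were polyA-selected with a stranded kit, per the labels' protocols. The authors deposited 1 table of gene signal, named as scaled counts; cutadapt 1.6, STAR 2.5.0a, HTSeq 0.5.3, DESeq 1.22.1 and build mm10 are listed in the submitters' processing notes, with no role. Whether counting used strand: not given in the sources used here. The organism label reads human, but gene identifiers are mouse Ensembl identifiers, and the values were treated as mouse. Dividing out 1 factor per library gave back reads: within 0.001 reads, 100% of values came out whole. The 4 rows that name no gene held 47.7% to 48.7% of reads and were left out.

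Groups came from the labels. limma 3.58.1 (R 4.3.3, variance trend, log2(scaled count + 1), mean of at least 10, Benjamini-Hochberg adjustment over all tested genes, threshold 0.05) was the test; edgeR 4.0.16 and DESeq2 1.42.0 on the recovered reads were alternatives, with other pseudocounts, filters, scalings and moderation and each shNF2 library left out. Scripts were tested on simulated data. The members and lists were chosen with earlier results of these data known. Named genes were Nf2, members that passed, the 3 smallest p-values per subgroup and list, and the receptors; 1 further gene named by the rule is not reported here; Msln, Krt18, Oas1g and the remaining genes named by value outside this rule were chosen after their values were seen. No promoter or protein sequence is printed, as no mouse sequence was used here. Gene coordinates were not analysed here.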

Additional observations from a re-analysis of the deposited data

How the results depend on the processing

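The median log2 fold change of the members stayed negative under every alternative tried, from -0.26 (pseudocount 10) to -0.38 (no filter), and was -0.14 without library 20 and -0.55 without library 21. The count of members at least 1.5-fold lower in both libraries ranged from 9 to 11. Without the filter on low values limma called 6 members lower and 1 higher, and 122 genes lower and 110 higher in all. Under quantile normalization and without a variance trend it called 0 members and 0 genes in either direction (882 and 1036 genes at an unadjusted p under 0.05); the cause was not tested. edgeR called 29 genes higher in place of 53. The log2 fold change of Ifnar2, 0.05, turned to -0.00385 under quantile normalization. Over 50 genes and the alternatives with a test, 469 of 495 values kept their direction and their side of the threshold, 13 newly passed and 12 no longer passed. Leaving out a shNF2 library leaves 1 against 1, a value with no test, and turned the sign of 6 of these genes: Eif2ak2 (0.07), Gbp3 (0.35), Irf1 (-0.07) and Ifnar2 (-0.03) without library 20, and Ifit1 (-0.26) and Irgm1 (-0.18) without library 21. No paired analysis was possible because the groups share no replicate number. Precision is limited by the lone shSC library and, for Mx1, Mx2, Iigp1, Gbp6 and Ifit3b, by few reads.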

Other observations

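Whole gene families were followed beyond the listed genes, a choice made after the values were seen. Of 8 Oas genes tested, 7 lay below shSC in both shNF2 libraries, as did 35.8% of all tested genes. Oas1g, next in kind to Oas1a, had 573 scaled counts in shSC against 245 (library 20) and 295 (library 21) (log2 fold change -1.09, limma adjusted p = 0.114), whereas Oas1c had 61.3, 88.9 and 67.1 and was the family's 1 gene above shSC in both. Over all tested genes 36.1% lay above shSC in both libraries and 35.8% below in both. Of 8 Gbp genes tested, 0 lay below in both and 7 above in both, Gbp6 by less than its standard error of 0.53. Besides Gbp2 and Gbp4 these included Gbp8 (146, 198 and 213), Gbp9 (279, 364 and 388) and Gbp2b (60.4, 73.2 and 171), none of which passed (limma adjusted p from 0.621 to 0.692). Among the Ifit genes outside the 42, Ifit1bl1 had 45.8, 16.7 and 11.7, below shSC in both libraries (-1.64, limma adjusted p = 0.295). Near-copies in these families may share reads.

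The 4 Ifi20x genes, which encode DNA-binding proteins of the PYHIN family, lay below shSC in both libraries, as did 35.8% of all tested genes. Ifi202b had 9746, 7059 and 5421 (-0.66, limma adjusted p = 0.314) and Ifi203 had 3575, 2914 and 2396. Ifi204 had 1487, 1380 and 1409, a log2 fold change of -0.09 that was smaller than its standard error of 0.22. Ifi205 was low, at 46.7, 26.2 and 28.2. Slfn2, a schlafen gene that keeps lymphocytes quiescent, had 1898, 846 and 1145 (-0.95, limma adjusted p = 0.124), and Slfn4, the other schlafen gene below shSC in both libraries, had 3082, 2604 and 2757. Slfn3, Slfn8 and Slfn9 had shSC values within the range of the shNF2 libraries. Cxcl10, an interferon-induced chemokine, had 60.4, 133 and 117 (1.03, limma adjusted p = 0.318), above shSC in both libraries like Gbp2 and Rsad2.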
